A study of Mus musculus with 72 samples.

Results

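Glycolysis and gluconeogenesis were described through 30 genes of glucose breakdown and glucose synthesis in fasted mouse liver. The genes were taken from a list of named enzymes, transporters and regulators and found in the deposited count table by Ensembl gene identifier, through the gene symbols of the authors' comparison table. All 30 were among the 51912 genes of the count table, and all 30 passed the filter on low counts that left 19362 genes for testing.

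The study put mice of the inbred strains C57BL/6J and DBA/2J, males and females, on a Control, a Medium Protein or a Low Protein diet. The diets began at 10 weeks of age and lasted 13 weeks, so the mice were 23 weeks old when their livers were taken after a 16 h fast; they were housed at about 22 °C. That gave 12 groups with 6 libraries in each, 72 in all, and no mouse carried a label of an engineered allele or a drug. Each library was made from polyadenylated RNA with a strand-preserving kit and carried an animal code that was its own within its strain and sex.

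Glycolysis splits glucose into pyruvate, and gluconeogenesis, which the liver carries out during fasting, runs most of the same steps backwards and bypasses the irreversible ones with its own enzymes, among them pyruvate carboxylase, phosphoenolpyruvate carboxykinase, fructose-1,6-bisphosphatase and glucose-6-phosphatase. Amino acids are among its substrates. Glucagon, glucocorticoids and insulin set the balance in part through transcription, with FOXO1, PGC-1α and KLF15 among the factors that act on the gluconeogenic genes.

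Library totals were between 26.9 and 38.4 M (mega) estimated counts, with a median of 32.4 M. Levels are given as CPM, the counts of a gene per mega-count of its library after trimmed-mean normalization (TMM), and values for a group are its lowest, median and highest library. A difference was called when its Benjamini-Hochberg adjusted p over all 19362 genes was under 0.05 in edgeR's quasi-likelihood test. Ribosomal-like RNA took a median of 0.148% of counts but over 3 times that median in 12 libraries and over 5% in 4, of which C57BL/6J male Control replicates 1 and 6 had 8.51% and 21.8%. Hepatocyte markers were abundant in every group, and no skeletal muscle, adipocyte or pancreatic acinar marker passed the filter. In Low Protein C57BL/6J males 4 of 5 red blood cell markers were higher, with a summed level of 126, 163 and 259 CPM on Control and 168, 376 and 476 CPM on Low Protein, and 2 of 8 hepatocyte markers were lower, with a median difference of -0.31 over the 8 (summed level 81700, 89100 and 94500 CPM on Control and 73900, 82700 and 106000 CPM on Low Protein). No red blood cell marker was called in the other Low Protein comparisons, and the part of these markers in the results below was not tested. In bulk tissue, fewer cells of a type and less RNA per cell cannot be told apart.

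Several members have near-identical copies elsewhere in the genome, and how counts were split between gene and copy differed by strain for Gapdh, Eno1 and Gpi1. A copy was counted where a transcript aligned to the member over at least 500 bases with at least 98% identity. Gapdh, which encodes the glyceraldehyde-3-phosphate dehydrogenase, had 40 such copies, and Eno1, which encodes enolase 1, had 2. Counts on the Gapdh copies came to 7.65% of the counts on Gapdh itself in C57BL/6J and to 46.9% in DBA/2J. For Eno1 the same shares were 3.5% and 61.1%, and for Gpi1, the glucose-6-phosphate isomerase, 0.276% and 8.27%. Pgk1, Pgam1 and Pfkfb2 had copies with similar shares in both strains, at 7.07% and 6.27% for Pgk1.

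The processed pseudogene Gm13394 carried most of the extra Gapdh signal of DBA/2J. It lies on the minus strand at chr2:28933610-28934609 (GRCm38) and was 99.9% identical to Gapdh over 1000 bases. It was at 0, 1.68 and 26.46 CPM over the 36 C57BL/6J libraries and at 93.79, 115.6 and 148.8 CPM over the 36 DBA/2J libraries, with no overlap. Another Gapdh pseudogene, Gm7336 at chr7:51746647-51747878, went the other way, with 14.69, 22.67 and 35.04 CPM in C57BL/6J and 3.264, 6.649 and 10.04 CPM in DBA/2J. In the coding part aligned, Gm7336 held 0 substitutions and Gm13394 held 1, A424C, counted from the first coding base of the longest Gapdh isoform. The stretches below, from GENCODE M21 transcripts on GRCm38, show how little separates gene and copy. For Gapdh they are coding bases 364 to 484 and for Eno1 bases 666 to 786, with the substituted base in capitals.
Gapdh: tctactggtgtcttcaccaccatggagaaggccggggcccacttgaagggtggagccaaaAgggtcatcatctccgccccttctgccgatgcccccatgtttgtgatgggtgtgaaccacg
Gm13394: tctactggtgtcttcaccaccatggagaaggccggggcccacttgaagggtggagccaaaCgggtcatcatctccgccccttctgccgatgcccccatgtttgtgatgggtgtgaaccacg
Eno1: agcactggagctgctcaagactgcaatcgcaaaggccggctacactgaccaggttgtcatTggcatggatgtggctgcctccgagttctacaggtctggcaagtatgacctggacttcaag
Gm4735: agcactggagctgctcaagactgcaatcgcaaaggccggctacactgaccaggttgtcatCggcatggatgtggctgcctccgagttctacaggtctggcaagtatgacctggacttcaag

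Gm4735, a processed pseudogene at chr2:80837141-80838442, differed from Eno1 at 5 of 1302 coding bases (T726C, T816G, A1056G, T1224C and C1233T, counted from the first coding base of Eno1). It was at 5.871, 8.391 and 11.74 CPM in C57BL/6J and at 17.13, 26.81 and 41.88 CPM in DBA/2J. The other copy, Eno1b, had a median of 36.25 CPM in DBA/2J, beside 0.9374 CPM in C57BL/6J. Whether reads on a copy came from the copy or from its parent gene was not tested, so each value of Gapdh, Eno1 and Gpi1 between strains is given with and without its copies.

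**Figure D1:**
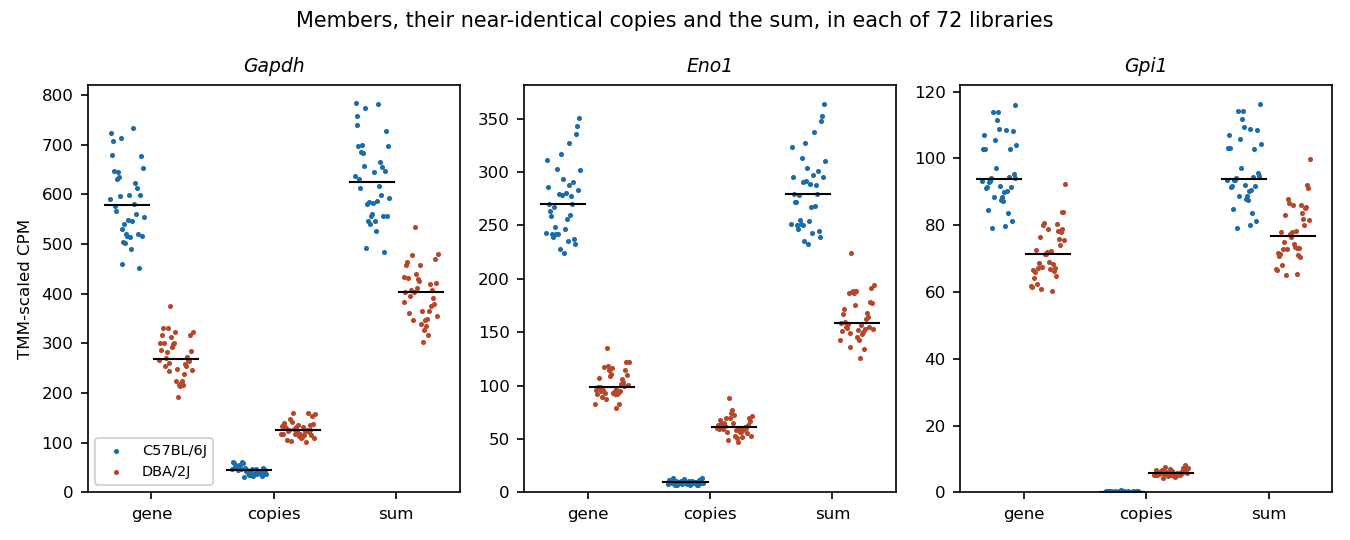
Level (CPM, TMM) of Gapdh, Eno1 and Gpi1, of the sum of their near-identical copies, and of gene and copies together; each point is 1 library, the 36 of each strain are drawn apart, and lines are medians. The copies stand higher in DBA/2J for all 3 genes, and the gap between strains is smaller for the sums than for the genes alone.

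Low Protein was compared with Control in each combination of strain and sex to ask how dietary protein restriction affects the liver of each. In C57BL/6J males Gckr, Khk, Mdh1, Gapdh, Tpi1 and Pcx fell, while Aldoa, Pck2 and Sik1 rose. Of the glucose entry and the fructose entry genes 1 of 2 each fell. Thus 9 of 30 members were called, where 9.78% of all genes tested were. The median log2 difference of the 30 was -0.05, beside 0.01 over all genes. The ranges of Control and Low Protein animals were apart for 5 members (Gapdh, Gckr, Khk, Mdh1 and Pck2), against 4.74% of all genes.

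Gckr, which encodes the glucokinase regulatory protein that holds glucokinase in the hepatocyte nucleus, was at 134.7, 143.5 and 175.4 CPM in Control C57BL/6J males and at 92.87, 103.7 and 121.3 CPM on Low Protein. The groups did not overlap, and the level was 1.41-fold lower (log2 difference -0.50 ± 0.09 (SE, 6 against 6), adjusted p = 0.000163). Khk, the ketohexokinase that phosphorylates fructose, was at 167.1, 207.6 and 222.5 CPM on Control and 115.7, 130.8 and 159.7 CPM on Low Protein, 1.47-fold lower (-0.56 ± 0.17, adjusted p = 0.0227). Every Low Protein male was below every Control male for both genes. Khk was not called without Control replicate 4 (-0.51, adjusted p = 0.0554) or Low Protein replicate 3 (-0.52, adjusted p = 0.0572). Tkfc, whose product phosphorylates the glyceraldehyde released from fructose, had a log2 difference of -0.00 in the same males.

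Among the glycolytic enzymes of C57BL/6J males, Gapdh fell from 577.2, 663.0 and 723.1 CPM to 459.5, 512.6 and 539.5 CPM (-0.36 ± 0.08, adjusted p = 0.00172). Tpi1, the triose-phosphate isomerase, was at 183.5, 210.9 and 232.3 CPM on Control and at 158.7, 174.8 and 196.2 CPM on Low Protein (-0.25 ± 0.07, adjusted p = 0.0209), with overlapping ranges, and was not called without Control replicate 3 (-0.22, adjusted p = 0.0672), Control replicate 5 (-0.22, adjusted p = 0.06) or Low Protein replicate 5 (-0.22, adjusted p = 0.0756). Aldoa, an aldolase, moved the other way, from 51.95, 55.26 and 64.19 CPM to 55.51, 75.82 and 85.17 CPM (0.38 ± 0.10, adjusted p = 0.00776). Of the 10 glycolytic enzymes 1 was thus higher, 2 were lower, and the median difference was 0.01. Pklr, the liver pyruvate kinase gene, was at 51.21, 72.12 and 111.5 CPM on Control and 60.04, 76.6 and 112.1 CPM on Low Protein and was not called (0.10, adjusted p = 0.846).

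Of the 8 gluconeogenic enzymes and carriers, 1 rose and 2 fell in C57BL/6J males. Mdh1, the cytosolic malate dehydrogenase that returns carbon and reducing equivalents to the cytosol, was at 310.3, 351.2 and 371.2 CPM on Control and 239.7, 258.5 and 278.3 CPM on Low Protein, without overlap and 1.33-fold lower (-0.41 ± 0.08, adjusted p = 0.000342). Pcx, the pyruvate carboxylase gene that opens the pathway, was at 636.1, 732.6 and 880.9 CPM on Control and 508.8, 623.2 and 649.8 CPM on Low Protein (-0.31 ± 0.11, adjusted p = 0.0499). This last call was at the threshold and was lost in 7 of 10 other analyses and in 10 of 12 fits with 1 library left out. Pck2, the mitochondrial phosphoenolpyruvate carboxykinase, rose from 2.171, 2.68 and 2.924 CPM to 2.998, 5.065 and 5.909 CPM (0.82 ± 0.20, adjusted p = 0.00396). Pck2 was the member with the fewest reads, 29 to 240 estimated counts a library, and its call was lost without the 12 libraries rich in ribosomal-like RNA (0.67, adjusted p = 0.147), as was that of Khk (-0.62, adjusted p = 0.0643).

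Pck1, the cytosolic carboxykinase often used as a marker of gluconeogenic transcription, was not called in any diet comparison. In C57BL/6J males it was at 1877, 4268 and 4903 CPM on Control and at 3306, 3417 and 4862 CPM on Low Protein (-0.10, adjusted p = 0.816). G6pc, the glucose-6-phosphatase that releases free glucose, was at 150.5, 242.2 and 326.1 CPM on Control and at 199.4, 390.8 and 536.0 CPM on Low Protein (0.69, adjusted p = 0.154). The groups overlapped for both genes. Fbp1, the fructose-1,6-bisphosphatase, was at 519.7, 591.4 and 747.6 CPM against 419.8, 504.5 and 571.0 CPM (-0.26, adjusted p = 0.153).

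Of the 5 regulators, Sik1 alone was called in a Low Protein comparison. It encodes a kinase, itself induced by cAMP, that restrains the coactivators of CREB. In C57BL/6J males it was at 10.79, 13.13 and 32.9 CPM on Control and at 21.51, 35.05 and 87.16 CPM on Low Protein, 2.52-fold higher (1.34 ± 0.35, adjusted p = 0.00808), with all 6 Low Protein animals above the Control median. Without Low Protein replicate 5 the difference was 1.02 (adjusted p = 0.0677). Slc25a25, the mitochondrial ATP-Mg carrier, was at 85.0, 137.5 and 348.5 CPM on Control and 167.0, 291.3 and 422.1 CPM on Low Protein and was not called (0.85, adjusted p = 0.139). Ppargc1a, which encodes PGC-1α, was at 13.04, 24.68 and 31.43 CPM against 10.9, 17.83 and 34.89 CPM (-0.20, adjusted p = 0.699).

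These C57BL/6J male values depended on the scaling in their size. Control replicate 6, with 21.8% ribosomal-like RNA, had the lowest TMM factor, 0.618. Scaled to library totals the median of all genes moved by 0.25 on the log2 scale and 94.4% of called genes were higher, against 41.7% with TMM. Of the members 10 were then called and all 10 were higher, and the share of all genes called on that scale is not given here. On that scale Mdh1 (-0.17), Gckr (-0.25), Khk (-0.32) and Gapdh (-0.12) stood below the moved median but were no longer called, and Aldoa and Sik1 were called at each of the 10 alternatives. Leaving out the 4 libraries with over 5% ribosomal-like RNA gave 10 called members, 4 of them higher.

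In C57BL/6J females 4 of 30 members were called, where 3.25% of all genes were, and no member's ranges were apart (1.35% of all genes). Tkfc fell from 96.01, 118.6 and 191.2 CPM to 53.84, 76.96 and 105.4 CPM, 1.57-fold lower (-0.65 ± 0.15, adjusted p = 0.00759). Gckr fell here too, from 105.2, 128.2 and 153.0 CPM to 78.25, 101.2 and 121.2 CPM (-0.38 ± 0.09, adjusted p = 0.0125). The ketohexokinase gene Khk, lower in the males, was at 71.11, 96.99 and 123.0 CPM on Control and 91.36, 115.6 and 138.9 CPM on Low Protein in the females, without a call.

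Aldoa and Pcx rose in the same females. Aldoa was at 47.14, 58.29 and 64.83 CPM on Control and 64.42, 73.21 and 84.37 CPM on Low Protein (0.37 ± 0.10, adjusted p = 0.0248). Pcx was at 504.5, 543.7 and 664.9 CPM on Control and 621.6, 743.2 and 863.0 CPM on Low Protein (0.38 ± 0.11, adjusted p = 0.0268). All 6 Low Protein females were past the Control median for each of the 4 called genes. Pck1 was at 3562, 4283 and 5243 CPM against 2399, 3353 and 4460 CPM (-0.36, adjusted p = 0.344), and G6pc at 194.0, 275.8 and 495.1 CPM against 270.5, 367.6 and 559.1 CPM (0.42, adjusted p = 0.536). The median difference of the 30 members was 0.10, beside 0.01 over all genes, and 22 were positive. With 1 library left out in turn, Pcx was lost in 7 of 12 fits (adjusted p up to 0.0786), Aldoa in 5 (up to 0.0771) and Gckr in 1, without Control replicate 4 (-0.33, adjusted p = 0.0639). None of the 4 calls held when only the Control and Low Protein C57BL/6J females were fitted.

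In DBA/2J males none of the 30 members was called by edgeR, limma-voom or DESeq2, where 0.093% of all genes were called by edgeR. At an unadjusted p under 0.05 there were 6, beside 7.62% of all genes. The median difference was 0.14, beside 0.01 over all genes, and 27 of 30 were positive. Eno1 had the smallest adjusted p, 0.221, and was the 1 member whose ranges were apart (0.615% of all genes), at 82.42, 97.2 and 107.2 CPM on Control and 109.1, 115.3 and 135.3 CPM on Low Protein. G6pc was at 85.67, 148.1 and 226.8 CPM on Control and 151.4, 234.9 and 410.0 CPM on Low Protein (0.79, adjusted p = 0.502), Pklr at 27.97, 33.43 and 65.22 CPM against 34.71, 49.39 and 81.53 CPM (0.47, adjusted p = 0.653), and Pck1 at 1628, 3005 and 3842 CPM against 1849, 2590 and 4157 CPM (-0.12, adjusted p = 0.945). All of these but Eno1 overlapped between the diets.

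In DBA/2J females 7 of 30 members rose and 0 fell, where 0.816% of all genes were called. The risers were 5 of the 10 glycolytic enzymes (Pgk1, Pgam1, Tpi1, Gapdh and Gpi1), together with Mdh1 and Slc37a4. The 10 glycolytic enzymes had a median difference of 0.32, beside 0.08 over the 30 members and -0.00 over all genes. Of the glycolytic enzymes without a call, Aldoa (0.35), Eno1 (0.29) and Ldha (0.08) had positive differences. Pfkl (-0.26) and Pklr (-0.16) had negative ones, so the rise did not cover every step. Ranges were apart for Eno1, Gpi1, Pgam1, Pgk1 and Mdh1 (1.23% of all genes).

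Pgk1, the phosphoglycerate kinase gene on chromosome X, was at 112.8, 119.4 and 139.9 CPM in Control DBA/2J females and at 154.4, 168.9 and 177.2 CPM on Low Protein, 1.37-fold higher (0.45 ± 0.07, adjusted p = 0.000265). Pgam1, the next enzyme, a phosphoglycerate mutase, went from 43.71, 53.71 and 58.86 CPM to 60.74, 70.36 and 78.51 CPM (0.38 ± 0.07, adjusted p = 0.00261). The lowest Low Protein animal was above the highest Control animal for both. Tpi1 went from 148.6, 170.9 and 205.9 CPM to 194.6, 222.6 and 264.5 CPM (0.37 ± 0.07, adjusted p = 0.00345), and Gapdh from 192.6, 217.9 and 248.2 CPM to 246.1, 275.7 and 323.0 CPM (0.37 ± 0.08, adjusted p = 0.00871). Both overlapped, and Gapdh with its copies added was not called (0.31, adjusted p = 0.0541). Gpi1 was at 60.38, 67.73 and 72.3 CPM against 75.69, 81.35 and 92.28 CPM (0.29 ± 0.07, adjusted p = 0.0277). The Gpi1 call was lost in 6 of 12 fits with 1 library left out (Control replicates 2, 4 and 5, Low Protein replicates 3, 4 and 6; adjusted p up to 0.119) and in 4 of 10 alternatives. Eno1, at 78.8, 92.59 and 96.58 CPM against 99.23, 112.5 and 122.4 CPM, was not called (0.29, adjusted p = 0.0776).

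Mdh1 rose in DBA/2J females from 234.9, 264.4 and 298.7 CPM to 300.3, 357.3 and 393.5 CPM, without overlap (0.42 ± 0.08, adjusted p = 0.00238). Slc37a4, the transporter that brings glucose-6-phosphate to the phosphatase in the endoplasmic reticulum, rose from 48.29, 66.95 and 78.64 CPM to 64.77, 96.58 and 140.9 CPM, with 5 of 6 above the Control median (0.66 ± 0.15, adjusted p = 0.00885). It was not called without Low Protein replicate 4 (0.58, adjusted p = 0.0613) or 6 (0.55, adjusted p = 0.0645). The phosphatase gene itself, G6pc, was at 176.8, 223.2 and 437.4 CPM against 113.5, 225.0 and 388.2 CPM (-0.11, adjusted p = 0.946). Pck1 was at 2414, 2699 and 4129 CPM against 2268, 2521 and 3799 CPM (-0.12, adjusted p = 0.894).

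The 3 genes of the bifunctional enzymes that make and break fructose-2,6-bisphosphate, the allosteric switch between glycolysis and gluconeogenesis, had a median difference of 0.69 in DBA/2J females but no call. Pfkfb1, the liver form, stood at 0.67 (adjusted p = 0.0932), Pfkfb2 at 0.69 (adjusted p = 0.0578) and Pfkfb3 at 1.16 (adjusted p = 0.166). All 6 Low Protein animals were above the Control median for each of the 3. Fitted on the compared groups alone the DBA/2J female count was 3, and by DESeq2 it was 11; Pgk1 and Mdh1 were called at each of the 10 alternatives.

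**Figure D2:**
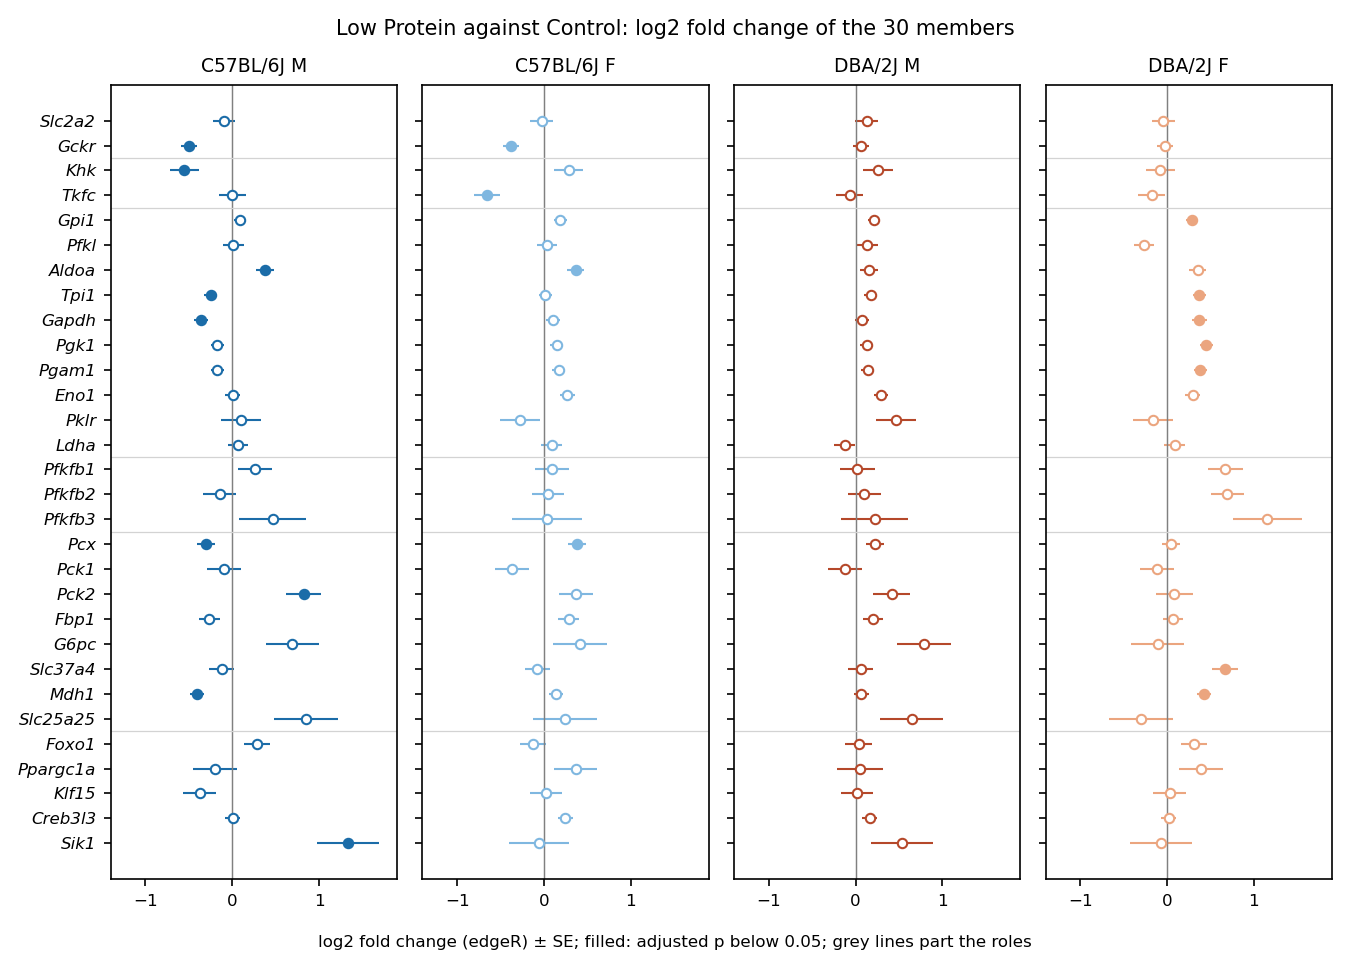
Log2 difference of Low Protein from Control (points, with bars of 1 SE) for the 30 members in the 4 combinations of strain and sex, ordered by role; filled points have an adjusted p under 0.05. The filled points lie on both sides of 0 in C57BL/6J males, with 3 higher and 6 lower, and above 0 in DBA/2J females, with 7 higher.

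Over the 4 combinations 14 members were called at least once, 6 were called in 2 combinations and 0 in 3 or more. Of those 6, Gckr and Aldoa were called with the same sign in C57BL/6J males and females. Mdh1, Gapdh and Tpi1 were lower in C57BL/6J males and higher in DBA/2J females, and Pcx was lower in C57BL/6J males and higher in C57BL/6J females. Aldoa, Eno1, Gpi1, Pfkfb1, Pfkfb3, Creb3l3 and Pck2 had a positive difference in all 4 combinations, and Tkfc and Pck1 a negative one.

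Averaged over the 4 combinations, Low Protein gave 7 calls, 6 higher and 1 lower, where 8.01% of all genes were called. Aldoa (0.31 ± 0.05, adjusted p = 1.55e-05), Gpi1 (0.19, adjusted p = 0.000174), Eno1 (0.22, adjusted p = 0.000423), Pck2 (0.42, adjusted p = 0.00484), Pgk1 (0.14, adjusted p = 0.011) and Pgam1 (0.13, adjusted p = 0.0191) were higher and Gckr was lower (-0.21, adjusted p = 0.00225). Gckr, Pgk1 and Pgam1 did not keep the same sign over the 4 combinations. Gckr stood at 0.07 in DBA/2J males, and Pgk1 and Pgam1 each stood at -0.17 in C57BL/6J males. Aldoa, Eno1, Gpi1 and Pck2 were called at each alternative. With library totals 90.5% of all called genes were higher, against 47.9%, and 12 members were called. The share of all genes called with library totals is not given here. The median of the 30 members was 0.12, beside 0.01 over all genes.

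The Low Protein response itself differed by sex within C57BL/6J for 6 of 30 members, where 4.56% of all genes were called, and all 6 were lower in males. These were Pcx (-0.68 ± 0.15, adjusted p = 0.0035), Mdh1 (-0.55 ± 0.12, adjusted p = 0.00294), Gapdh (-0.46 ± 0.12, adjusted p = 0.0125), Khk (-0.84 ± 0.24, adjusted p = 0.0271), Fbp1 (-0.55 ± 0.17, adjusted p = 0.041) and Pgam1 (-0.35 ± 0.11, adjusted p = 0.0429). By the roles used here Pcx, Mdh1 and Fbp1 were listed as gluconeogenic, Gapdh and Pgam1 as glycolytic and Khk as fructose entry. The steps of Gapdh and Pgam1 are among those that gluconeogenesis runs backwards, so these labels do not assign the 2 genes to 1 direction. In females Mdh1 was at 274.2, 297.9 and 332.8 CPM on Control and 259.5, 327.5 and 435.6 CPM on Low Protein, and Fbp1 at 475.8, 536.2 and 704.8 CPM against 625.2, 654.3 and 818.3 CPM. Both medians of the Control females were below those of the Control males. Pcx was called at each alternative, and Pgam1 was lost in 7 of 10. With library totals the median of all genes moved by 0.24 and 94.8% of called genes were higher in males, against 40.6%; Gapdh, Khk, Fbp1, Mdh1 and Pgam1 were then not called, and of the 4 members called 3 were higher. With 1 library left out in turn, Pgam1 was lost in 17 of 24 fits, Fbp1 in 13 and Khk in 4. The hepatocyte markers had a median of -0.30 in the same contrast, with 1 of 8 called lower, and the red blood cell markers one of 1.10, with 1 of 5 called higher; their part in these differences was not tested.

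Between the strains, the response in males was higher in DBA/2J than in C57BL/6J for 6 members, where 2.88% of all genes were called: Khk (0.81 ± 0.24, adjusted p = 0.0424), Gckr (0.56 ± 0.13, adjusted p = 0.00917), Pcx (0.53 ± 0.15, adjusted p = 0.0342), Mdh1 (0.48 ± 0.12, adjusted p = 0.011), Gapdh (0.44 ± 0.12, adjusted p = 0.0235) and Tpi1 (0.42 ± 0.10, adjusted p = 0.0131). Each had fallen in C57BL/6J males and none was called in DBA/2J males. This contrast and the sex contrast within C57BL/6J share the C57BL/6J males. The count was 3 without the 12 libraries rich in ribosomal-like RNA and 0 with library totals, which moved the median of all genes by -0.17 and left 10.8% of called genes higher, against 68.5%. Without C57BL/6J male Control replicate 4 it was 3. With 1 library left out in turn, Khk was lost in 15 of 24 fits, Pcx in 10 and Gapdh in 2. The hepatocyte markers had a median of 0.29 in this contrast with 0 of 8 called, and the red blood cell markers one of -0.97 with 1 of 5 called lower.

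No member was called for a sex difference of the response within DBA/2J (0% of all genes, smallest adjusted p 0.446, and 0 by limma-voom and DESeq2). At an unadjusted p under 0.05 there were 9 members, beside 7.63% of all genes. None was called between the strains in females, where 0.093% of all genes were. There the smallest adjusted p was 0.119, and 11 members had an unadjusted p under 0.05, beside 11.1% of all genes. In this contrast limma-voom called 0 and DESeq2 called 1, Slc37a4 (0.75, adjusted p = 0.0491).

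**Figure D3:**
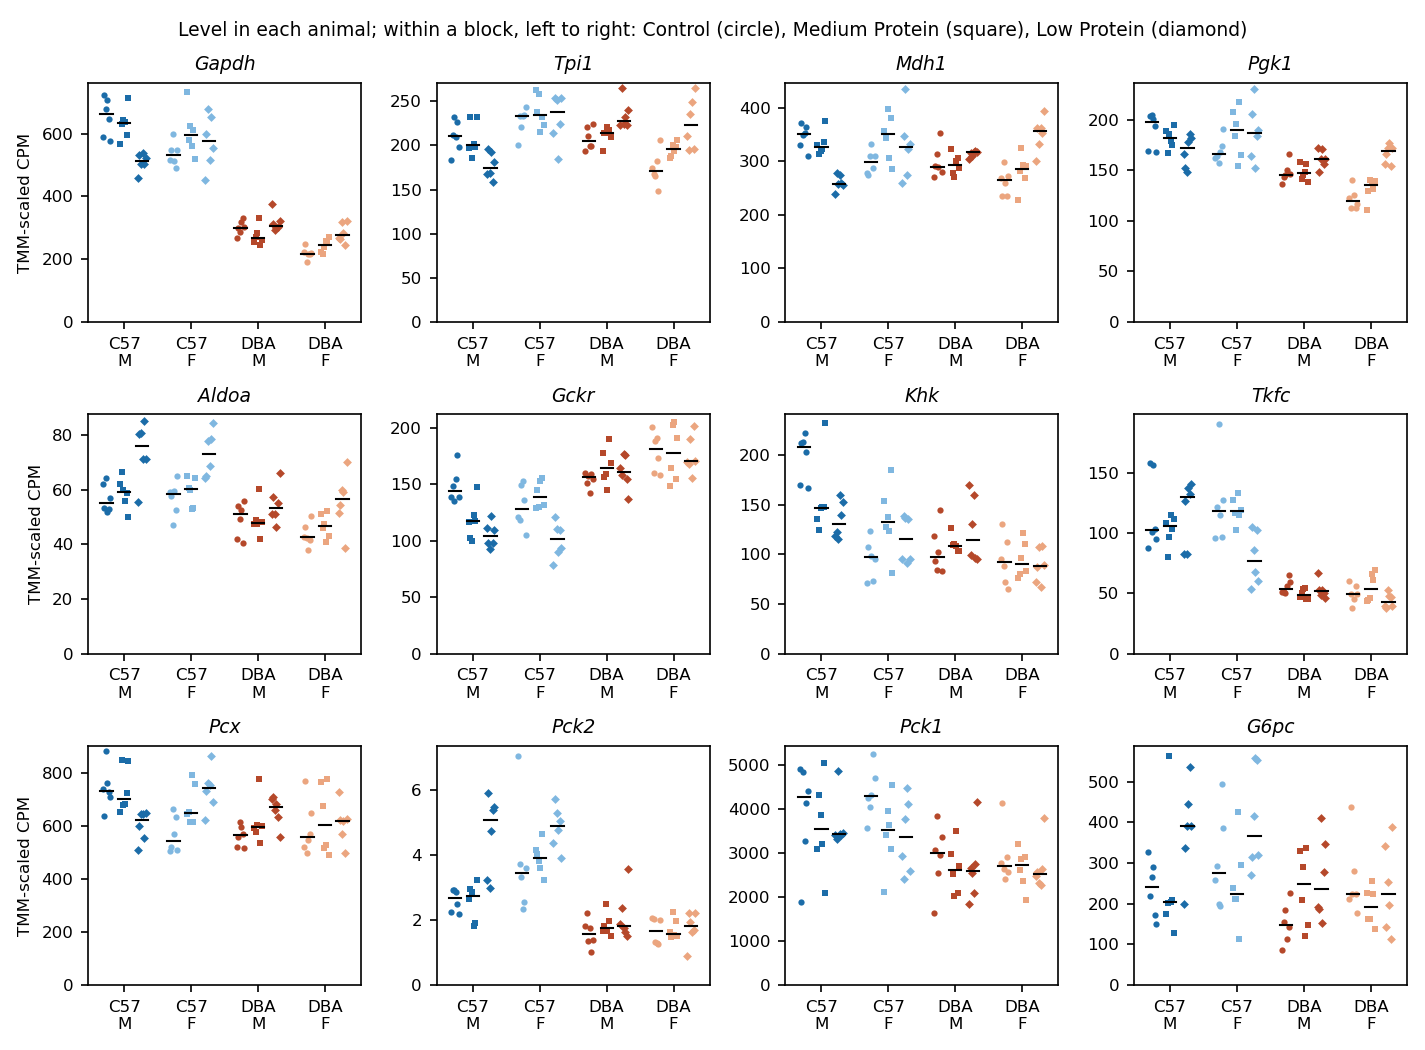
Level (CPM, TMM, axis from 0) of 12 members in each animal of the 12 groups; circles are Control, squares Medium Protein and diamonds Low Protein, and lines are medians of 6. Gapdh, Mdh1 and Gckr stand lower on Low Protein in C57BL/6J males, Mdh1 and Pgk1 stand higher in DBA/2J females, and Pck1 overlaps between diets in all 4 combinations.

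Medium Protein, compared with the same Control animals, gave no called member in any combination by edgeR, limma-voom or DESeq2. Of all genes edgeR called 0.418% in C57BL/6J males, 0% in C57BL/6J females, 0.00516% in DBA/2J males and 0.00516% in DBA/2J females. At an unadjusted p under 0.05 there were 5, 7, 1 and 2 members in that order, beside 10.2%, 7.57%, 3.97% and 2.67% of all genes. The ranges of Medium Protein and Control were apart for 0 members in each (0.573%, 0.387%, 0.263% and 0.196% of all genes). Gckr in C57BL/6J males was intermediate, at 99.52, 117.1 and 147.8 CPM, and was not called (-0.33, adjusted p = 0.0914). It was called without the 4 libraries over 5% ribosomal-like RNA (-0.46, adjusted p = 0.0318) and without Medium Protein replicate 6 (-0.40, adjusted p = 0.0179). The mean over the 4 combinations gave 0 calls of members and 0% of all genes, with a smallest adjusted p of 0.913. At an unadjusted p under 0.05 it had 2 members, beside 5.37% of all genes.

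Around the 30 members, a list of 70 other genes in and around the pathway was counted, of which 68 were tested. It held isozymes, phosphoglucomutases, aminotransferases, shuttles and other carriers, hormone receptors, transcription factors and cofactors. In C57BL/6J males 2 of the 68 rose and 10 fell on Low Protein (17.6% called, beside 9.78% of all genes). With library totals 18 were higher and 4 lower, and without a filter on low counts 1 was higher and 6 lower. The 4 with the smallest p were all lower: Ldhd, a D-lactate dehydrogenase (-0.67, adjusted p = 4.51e-05), Pgm1, a phosphoglucomutase (-0.33, adjusted p = 0.000184), Pde4b, a cAMP phosphodiesterase (-1.10, adjusted p = 0.000194), and Gpt, the cytosolic alanine aminotransferase (-0.63, adjusted p = 0.000477). In C57BL/6J females 2 rose, Aldoc (0.97, adjusted p = 0.00468) and Sik2 (0.23, adjusted p = 0.035), and 0 fell, a share of 2.94% beside 3.25% of all genes. None was called in DBA/2J males. In DBA/2J females 3 rose and 0 fell (4.41%, beside 0.816% of all genes; 1 with library totals and 0 with the compared groups only): Gpt2, the mitochondrial alanine aminotransferase (0.81, adjusted p = 0.00398), Mlx, the partner of the carbohydrate-response factor ChREBP (0.35, adjusted p = 0.0215), and Slc25a11, the oxoglutarate carrier of the malate shuttle (0.28, adjusted p = 0.0264). With Medium Protein edgeR and limma-voom called none, and DESeq2 called 1, lower, in C57BL/6J males.

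The response of the same 68 differed by sex within C57BL/6J for 7 genes, all lower in males (10.3%, beside 4.56% of all genes), with Ldhd (-0.95, adjusted p = 0.000357), Slc25a11 (-0.43, adjusted p = 0.00486), Gpt (-0.72, adjusted p = 0.0128) and Pgm1 (-0.33, adjusted p = 0.0227) first. It differed by strain in males for 6, all higher in DBA/2J (8.82%, beside 2.88% of all genes), with Gpt (0.86, adjusted p = 0.00309), Slc25a11 (0.39, adjusted p = 0.0141), Slc25a10 (0.83, adjusted p = 0.018) and Pgm1 (0.32, adjusted p = 0.0341) first. With library totals 9 of the 68 were called by sex, 8 of them higher in males, and 1 by strain; without the 12 libraries rich in ribosomal-like RNA 3 were called by sex, all lower, and 3 by strain, all higher. Slc25a11 and Slc25a10 carry oxoglutarate and dicarboxylates across the inner mitochondrial membrane, and Gpt supplies pyruvate from alanine. The cytosolic partner of these carriers, Mdh1, was called in the same 2 contrasts.

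Over the 3 diets, with 18 animals a strain in each sex, 21 members differed between DBA/2J and C57BL/6J males, 2 higher and 19 lower in DBA/2J, where 51.1% of all genes were called. In females 28 differed, 2 higher and 26 lower, where 49.8% of all genes were called. Of all called genes 49.2% in males and 48.5% in females were higher in DBA/2J. On the Control diet alone, with 6 animals a strain, 14 differed in males, 0 of them higher, and 22 in females, 2 of them higher. The share of all genes called on that diet alone is not given here, so these 2 counts have no background beside them. Over the 3 diets the members' medians were -0.43 and -0.41, beside -0.01 and -0.01 over all genes. Of the 20 members called in both sexes 19 had one sign, and Tpi1 was the exception (0.14, adjusted p = 0.0055 in males; -0.24, adjusted p = 3.52e-06 in females).

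Eno1, at 223.9, 270.2 and 350.7 CPM over the C57BL/6J libraries and 78.8, 98.81 and 135.3 CPM over the DBA/2J libraries, did not overlap between strains. It was 2.6-fold lower in DBA/2J males (-1.38 ± 0.05, adjusted p = 3.74e-35) and 2.81-fold lower in females (-1.49 ± 0.05, adjusted p = 6.77e-37). With its copies added the differences were 1.64-fold and 1.82-fold (232.7, 279.7 and 364.1 CPM against 126.3, 158.2 and 223.9 CPM). Both comparisons stayed called with the copies, and the strains still did not overlap.

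Gapdh, a gene widely used to normalise expression, was at 452.3, 578.7 and 733.9 CPM in C57BL/6J and 192.6, 269.0 and 374.6 CPM in DBA/2J. The level was 2-fold lower in DBA/2J males (adjusted p = 1.45e-28) and 2.31-fold lower in females (adjusted p = 8.11e-33). Adding its copies brought the differences to 1.51-fold (log2 difference -0.59 ± 0.05, adjusted p = 5.15e-17) and 1.64-fold (-0.71 ± 0.05, adjusted p = 1.52e-20), and the ranges then overlapped, at 484.7, 624.3 and 783.5 CPM against 302.3, 403.3 and 533.6 CPM. Gpi1 went from -0.51 to -0.39 in males and from -0.35 to -0.23 in females with its copy added.

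Members without such copies also differed by strain. Tkfc was at 53.84, 106.9 and 191.2 CPM in C57BL/6J and 37.93, 50.03 and 69.75 CPM in DBA/2J (-1.10 in males, adjusted p = 4.6e-17; -1.09 in females, adjusted p = 4.53e-17). Slc2a2, the hepatocyte glucose transporter GLUT2, was at 249.5, 383.6 and 469.6 CPM against 169.5, 245.8 and 347.3 CPM (-0.71 in males, adjusted p = 1.04e-12). Slc37a4 was at 93.03, 129.4 and 179.4 CPM against 46.3, 74.13 and 140.9 CPM (-0.73 in males, adjusted p = 3.88e-11). The ranges overlapped for these 3 genes.

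In females Pck2 was lower in DBA/2J (-1.27, adjusted p = 1.56e-14), with 1.82, 3.449 and 7.046 CPM over all C57BL/6J libraries and 0.8844, 1.73 and 3.583 CPM over all DBA/2J libraries. Fbp1 was lower as well (-0.66, adjusted p = 4.03e-13), with 419.8, 613.8 and 818.3 CPM against 293.8, 401.8 and 536.3 CPM. Gckr was the member called higher in DBA/2J in both sexes, at 78.25, 121.3 and 175.4 CPM in C57BL/6J and 136.9, 164.3 and 205.2 CPM in DBA/2J (0.53 ± 0.05 in females, adjusted p = 3.32e-13; 0.39 ± 0.05 in males, adjusted p = 8.52e-09). On the Control diet alone its male strain difference was 0.05 (adjusted p = 0.725). Of the 5 regulators 5 were lower in DBA/2J females and 3 in DBA/2J males. On the Control diet alone the male calls of Foxo1 (adjusted p = 0.277) and Sik1 (adjusted p = 0.287) were lost, and that of Ppargc1a was kept. The call of Creb3l3 in females (-0.15) was lost with library totals and on the Control diet alone.

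Between males and females 13 members differed in C57BL/6J, 6 higher and 7 lower in males, where 42.2% of all genes were called. In DBA/2J 13 differed, 11 higher and 2 lower in males, where 39.2% of all genes were called. Of the 9 called in both strains 6 had one sign. With library totals 22 were called in C57BL/6J, 3 of them higher in males, and 13 in DBA/2J, 2 of them higher. The shares of 42.2% and 39.2% belong to TMM, and those with library totals are not given here.

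Markers of other cells moved with sex too. In C57BL/6J males 7 of 8 Kupffer cell and macrophage markers were lower (median -0.61; summed level 91.9, 179 and 236 CPM in males and 147, 202 and 874 CPM in females), and 3 of 3 B cell markers were lower in the males of each strain. Red blood cell markers were higher in males, 5 of 5 in C57BL/6J (126, 195 and 476 CPM against 61.2, 114 and 194 CPM) and 4 of 5 in DBA/2J (138, 214 and 325 CPM against 44.5, 83.3 and 147 CPM). Of the 8 hepatocyte markers 3 were higher and 2 lower in C57BL/6J males, and 5 higher and 1 lower in DBA/2J males. The part of these markers in the sex differences was not tested. Some summed levels shifted with strain as well. Cholangiocyte markers were lower in DBA/2J females, without overlap (8.24, 11.6 and 13.9 CPM, beside 18.1, 28.7 and 61.6 CPM). For males their medians were 14.3 CPM (DBA/2J) and 26 CPM (C57BL/6J), with overlap. Stellate and fibroblast markers were higher in DBA/2J, with overlap, at medians of 435 beside 297 CPM (males) and 415 beside 349 CPM (females). Hepatocyte sums overlapped between strains. What markers contributed to the strain differences was not tested.

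Ppargc1a had the smallest p in both: it was at 10.9, 16.75 and 51.03 CPM in C57BL/6J males and 24.48, 39.16 and 100.3 CPM in females (-0.97 ± 0.15, adjusted p = 1.54e-07). In DBA/2J it was at 7.201, 10.31 and 16.49 CPM in males and 17.0, 21.54 and 41.45 CPM in females (-1.16 ± 0.15, adjusted p = 2.66e-09). The sexes did not overlap in DBA/2J.

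In C57BL/6J 2 of the 10 glycolytic enzymes were higher in males, Pklr and Pfkl, and 3 were lower, with a median of -0.00. Pklr was at 24.07, 72.74 and 132.2 CPM in males and 22.81, 43.18 and 74.24 CPM in females (0.77, adjusted p = 2.55e-06). Pfkl, the liver phosphofructokinase, was at 16.93, 23.7 and 28.17 CPM against 11.6, 18.12 and 23.01 CPM (0.39, adjusted p = 3.19e-06; 0.16, adjusted p = 0.052 with library totals). Khk, of the fructose entry genes, was at 115.7, 150.2 and 232.4 CPM against 71.11, 115.3 and 185.1 CPM (0.50, adjusted p = 2.26e-05). Tpi1 was lower in males, at 158.7, 197.8 and 232.3 CPM against 184.7, 232.8 and 262.7 CPM (-0.23, adjusted p = 1.12e-05), as was Pfkfb2, at 20.33, 26.89 and 52.88 CPM against 29.22, 45.04 and 61.85 CPM (-0.57, adjusted p = 2.05e-05). All 5 overlapped between the sexes.

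In DBA/2J males Creb3l3, a liver transcription factor of the fasting state, was at 243.8, 285.0 and 333.4 CPM, beside 180.8, 215.3 and 279.9 CPM in females (0.38 ± 0.05, adjusted p = 4.21e-09). Pfkfb3 was at 6.363, 16.66 and 54.54 CPM against 3.612, 9.055 and 27.56 CPM (1.14, adjusted p = 3.53e-05). Gapdh was at 244.4, 299.6 and 374.6 CPM against 192.6, 247.1 and 323.0 CPM (0.26, adjusted p = 6.58e-06). Tpi1, at 193.1, 218.8 and 264.8 CPM against 148.6, 195.3 and 264.5 CPM, was higher in males here (0.14, adjusted p = 0.00512), opposite to C57BL/6J, as Ldha was (-0.19 in C57BL/6J and 0.20 in DBA/2J). On the Control diet alone Ldha was not called in either strain, nor Tpi1 in C57BL/6J. The Ldha call in C57BL/6J was also lost in both fits without libraries rich in ribosomal-like RNA. With library totals neither gene was called in DBA/2J. Pgam1 was at 59.8, 66.65 and 78.2 CPM against 43.71, 59.83 and 78.51 CPM (0.14, adjusted p = 0.0054). With library totals the median of all genes moved by -0.23 in C57BL/6J and -0.24 in DBA/2J, the share of called genes higher in males went from 50.5% to 11% and from 52.8% to 9.75%, and the signs of 7 and 9 members turned, Gapdh in C57BL/6J and Tpi1 in DBA/2J among them.

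The split of variance over the 72 libraries (log2 CPM, sums of squares) put these effects side by side. For the median member strain took 28.3%, sex 1.31%, diet 3.36%, strain by sex 1.28%, the interactions with diet 7.51% and differences among animals of a group 40.6%. With library totals the members' medians were 22.5% for strain, 11.8% for sex and 5.51% for diet. Over all genes the medians with TMM were 8.65%, 5.1%, 1.9%, 1.5%, 6.6% and 59.3%. Strain took 94.4% for Eno1, 88.3% for Gapdh and 75.7% for Tkfc, while sex took 43.9% for Ppargc1a, 37.7% for Creb3l3 and 30.5% for Pfkfb3. Interactions with diet took 48.2% for Mdh1, 28.2% for Tpi1 and 24.2% for Pcx, and diet alone took 23.6% for Aldoa. Animals of a group accounted for 73.5% in Slc25a25, 64.6% in G6pc and 64.5% in Pck1, beside 23.8% in Slc37a4 and 25% in Fbp1, where strain took 64.3% and 65%.

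**Figure D4:**
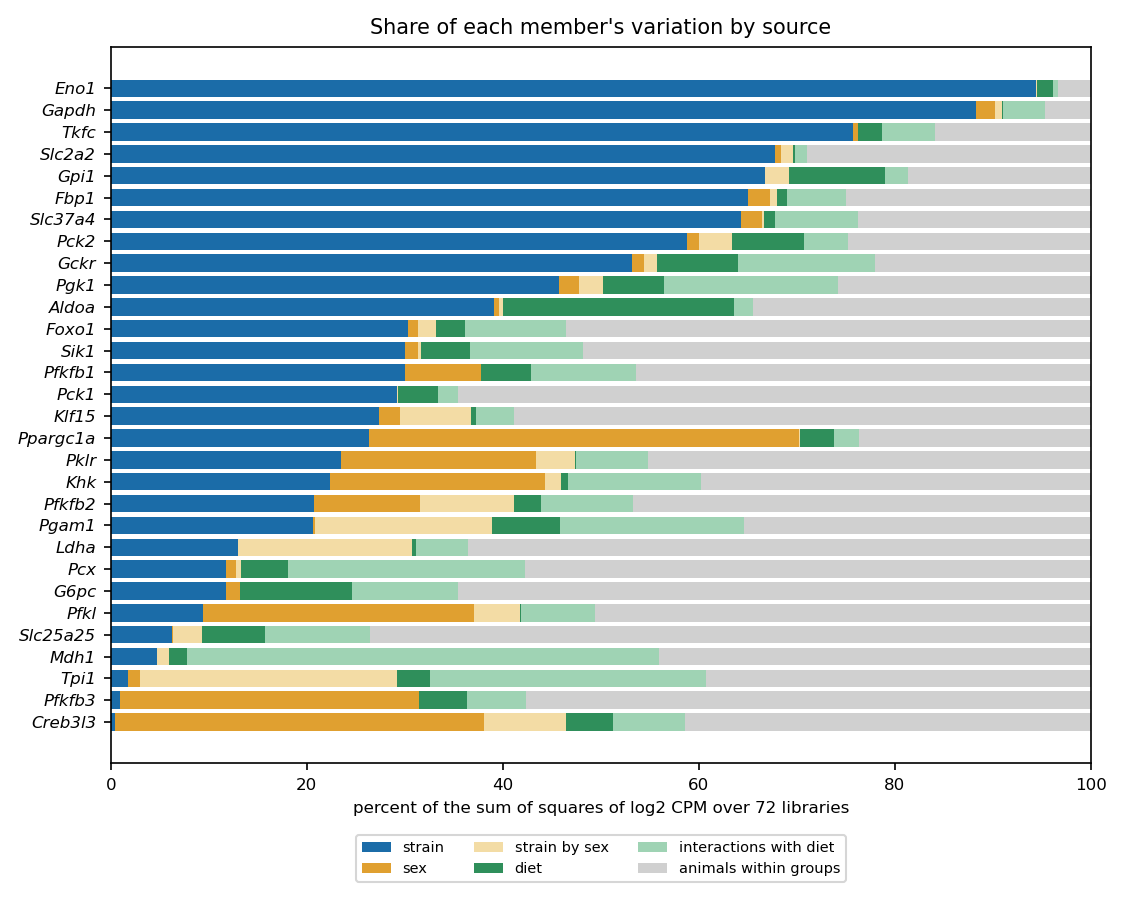
Share of the variance of log2 CPM over 72 libraries (percent, stacked bars) that strain, sex, diet, strain by sex, the interactions with diet and animals within groups take, for the 30 members ordered by the strain share. Eno1 and Gapdh have strain shares of 94.4% and 88.3%, and Mdh1 has the widest band of interactions with diet, 48.2%.

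Because Pck1 varied mainly among animals of the same group, the members were also related to each other after each group's mean was subtracted (log2 CPM, n = 72, 10 pairs, permutation within groups, Benjamini-Hochberg adjusted). Pck1 and Klf15, which encodes a fasting-induced transcription factor, had a Pearson r of 0.711 and a Spearman rho of 0.721 (permutation p = 1e-05, the smallest the permutations can give, adjusted 3.33e-05). Within the 4 combinations r was between 0.609 and 0.876, and without the 2 animals farthest from the median it was 0.671. Of 19361 other genes 0.031% had an r with Pck1 as high as Klf15 did, and the median r was -0.0145. For Pck1 and Foxo1 r was 0.649 and rho 0.673 (permutation, adjusted p = 3.33e-05), between 0.521 and 0.801 within combinations and 0.641 without the 2 farthest animals.

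Pck1 was less closely related to the coactivator gene and to its partner at the end of the pathway. With Ppargc1a r was 0.475 and rho 0.483 (permutation, adjusted p = 0.00028), 0.441 without the 2 farthest animals, and with G6pc r was 0.387 and rho 0.404 (permutation, adjusted p = 0.00255), 0.379 without them. Of the other genes 0.0826% were as high as Foxo1, 0.713% as high as Ppargc1a and 1.62% as high as G6pc. On the sugar-breakdown side Pklr and Khk had an r of 0.603 and rho of 0.576 (permutation, adjusted p = 3.33e-05), 0.576 without the 2 farthest animals and 0.597 to 0.724 within combinations. Pklr and Gckr had an r of 0.546 and rho of 0.537 (permutation, adjusted p = 5e-05), 0.492 without the 2 farthest and 0.204 to 0.756 within combinations.

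Gapdh was related to Tpi1 (r = 0.482, rho = 0.533, permutation, adjusted p = 0.000333, 0.459 without the 2 farthest animals) and to Pgk1 (r = 0.462, rho = 0.445, permutation, adjusted p = 0.000771, 0.409 without them), its neighbours in the pathway. Within combinations r went from 0.132 (DBA/2J males) to 0.601 for Tpi1 and from 0.189 (DBA/2J females) to 0.645 for Pgk1. Of the other genes 0.692% had an r with Gapdh as high as Tpi1 and 0.873% as high as Pgk1. Ppargc1a had no called relation to Sik1 (r = 0.0975, rho = 0.172, permutation, adjusted p = 0.595) or Slc25a25 (r = -0.0153, rho = 0.0472, permutation, adjusted p = 0.919). The animals share a library preparation, and codes shaped like plate positions in the labels run in group order, so position and group cannot be told apart in full. With the row letter of those codes also subtracted, r was 0.696 for Pck1 with Klf15, 0.669 with Foxo1 and 0.401 with G6pc, and 0.686 for Pklr with Khk.

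**Figure D5:**
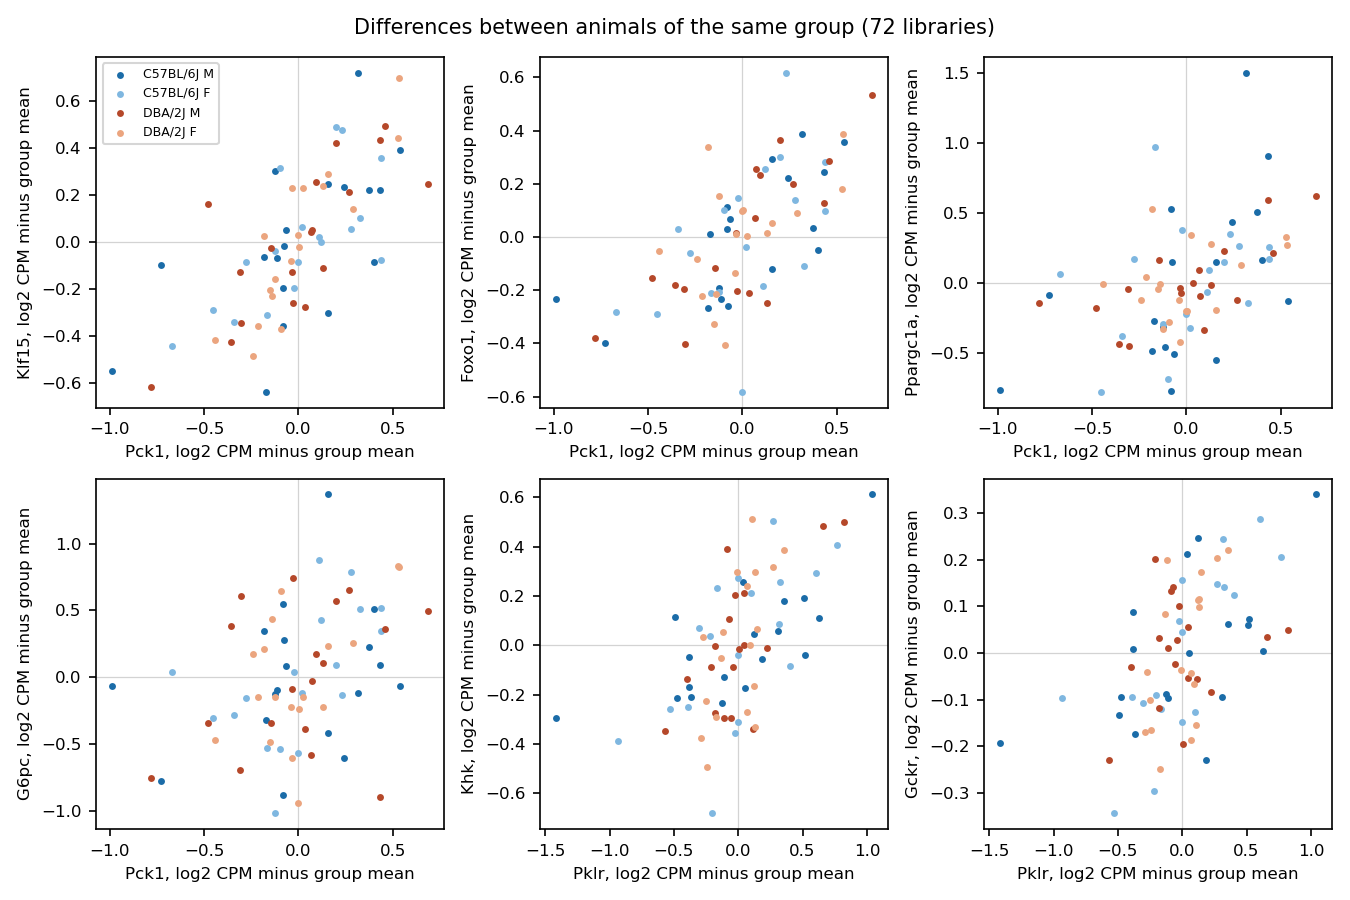
Deviation of each of 72 animals from its group mean (log2 CPM, both axes) for Pck1 against Klf15, Foxo1, Ppargc1a and G6pc, and for Pklr against Khk and Gckr. Pearson's r is 0.711 for Klf15, 0.649 for Foxo1, 0.475 for Ppargc1a, 0.387 for G6pc, 0.603 for Khk and 0.546 for Gckr.

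CREB-type elements (TGACG, and its full palindrome TGACGTCA) and the E-box CACGTG, the core that carbohydrate-response factors read, are described for this pathway. The promoters of 3 genes from these pairs are shown, picked from those with matches. Among the genes of these pairs not shown, the windows of Foxo1, G6pc, Pklr, Gckr, Gapdh, Pgk1 and Tpi1 held 0 matches. That of Ppargc1a held 1, a TGACG, and a window of Slc25a25 held the full TGACGTCA, 150 bases before the start. Each window shown is the 250 bases before the RefSeq start on GRCm38.p6, on the plus strand: Pck1 at chr2:173152823-173153072, Klf15 at chr6:90462326-90462575 and Khk at chr5:30921309-30921558. Matches on either strand are in capitals.
Pck1: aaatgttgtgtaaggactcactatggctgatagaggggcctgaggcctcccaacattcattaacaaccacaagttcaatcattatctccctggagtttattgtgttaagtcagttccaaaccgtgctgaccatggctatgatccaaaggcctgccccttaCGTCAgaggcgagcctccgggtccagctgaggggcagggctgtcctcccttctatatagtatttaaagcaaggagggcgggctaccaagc
Klf15: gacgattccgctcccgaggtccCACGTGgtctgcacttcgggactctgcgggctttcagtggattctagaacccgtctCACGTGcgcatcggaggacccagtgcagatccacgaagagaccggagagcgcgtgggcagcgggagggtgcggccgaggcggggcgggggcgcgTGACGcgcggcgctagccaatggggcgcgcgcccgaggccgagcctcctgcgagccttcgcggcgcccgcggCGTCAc
Khk: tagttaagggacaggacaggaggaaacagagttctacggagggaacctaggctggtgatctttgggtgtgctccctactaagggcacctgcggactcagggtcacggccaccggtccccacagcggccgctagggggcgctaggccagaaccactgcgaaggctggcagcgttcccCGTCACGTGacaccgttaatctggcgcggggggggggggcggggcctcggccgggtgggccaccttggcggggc

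In the Pck1 window TGACG occurs once, on the minus strand, 90 bases before the start. Klf15 has TGACG at 78 bases (plus strand) and 6 bases (minus strand) and CACGTG at 228 and 172 bases, and in Khk a TGACG on the minus strand at 74 bases overlaps CACGTG at 71 bases. TGACG was in 17.8% of 32851 promoters of the same length, from 27025 genes, and in 13 of the 47 windows of the 29 members with an entry (27.7%; 10 members). The members have more windows a gene than all genes do, so shares are given per window. CACGTG was in 6.02% of promoters and in 6 of the 47 windows (12.8%), those of Khk, Klf15, Ldha, Pcx, Pfkfb2 and Pfkfb3. The full TGACGTCA was in 1.55% of promoters and in Ldha and Slc25a25 alone of the members. One forkhead string, GTAAACA, was in 3.17% of promoters, and the full palindrome of the glucocorticoid response element in 0.00913%. Both were in 0 of the 47 windows. At shares this low, 0 matches in so few windows says little, and other forms of these sites were not searched. A match describes these letters in this window and no more. Sik1 had no entry.

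The authors' deposited table of comparisons, with its own fits of 17575 genes, calls 9 members for Low Protein in C57BL/6J males, 4 in C57BL/6J females, 0 in DBA/2J males and 7 in DBA/2J females, and 0 for Medium Protein. All 20 of these calls were of the same genes as in the edgeR fits.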

How the data were processed

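The deposited table holds expected counts per gene, estimated with RSEM per the submitters' processing notes, which also name edgeR, limma and R 3.4.3; libraries were run over 2 lanes and merged, per the labels' protocols. For aligner, genome build and annotation: not given in the sources used here. In the authors' deposited comparison table stand log2 fold changes and p-values per comparison, and a score (an F statistic) that was not used. The 72 libraries of 12 groups were mapped by strain, diet and sex in the labels, and a further strain named in the series is not analysed here. No value column lacked a sample (0).

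Expected counts (11.6% not whole) were rounded. Genes were filtered by edgeR's filterByExpr over the groups, and 19362 of 51912 were fitted at once, with TMM factors, a common biological coefficient of variation of 0.207 and glmQLFTest contrasts for 18 comparisons (R 4.3.3, edgeR 4.0.16); limma 3.58.1 and DESeq2 1.42.0 were alternatives. All groups shared 1 estimate of spread. Benjamini-Hochberg adjustment ran over all genes tested, with a threshold of 0.05. Scripts were tested on simulated data. P-values measure the spread between these libraries.

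The members and lists were chosen with earlier results of these data known. All 30 members are named; group values are given for members called in a diet or response comparison and for G6pc, Pck1, Fbp1, Pcx, Pklr, Gapdh and Ppargc1a, and for strain and sex for up to 6 called members by smallest p. Names came from GENCODE M21 (51633 identifiers matched). Other cell types' marker lists had no member called in a Low Protein comparison within a combination, beside the red blood cell and hepatocyte lists given in the report (1 hepatocyte marker was higher in DBA/2J females). Promoters (RefSeq, GRCm38.p6) were searched over 250 bases upstream, without the 50 transcribed bases of each entry. Alternatives were RLE factors, library totals, no filter, the compared groups only, the row letter of the position codes as a factor, leaving out each library or the libraries rich in ribosomal-like RNA, limma-voom and DESeq2. Adding the copies' counts, leaving out the 4 libraries over 5% and subtracting the row letter in the correlations were chosen after seeing the data.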

Additional observations from a re-analysis of the deposited data

Results flagged for a closer look

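In 240 groups of 6 animals (20 members in 12 groups) the gap of the highest or lowest animal to its neighbour was compared with the group's range, and 20 gaps (8.33%) were above the 95% critical value of 0.625; chance gives about 5%. The gap took 0.887 of the range for Pck1 in C57BL/6J male Low Protein replicate 3 (4862 CPM, next 3453), 0.652 for Pck1 in DBA/2J female Control replicate 2 (4129, next 2910) and 0.713 for Pck1 in DBA/2J female Low Protein replicate 6 (3799, next 2630). For Ppargc1a it was 0.774 in C57BL/6J male Medium Protein replicate 2 (51.03, next 16.98) and 0.65 in DBA/2J male Low Protein replicate 6, and for G6pc 0.671 in C57BL/6J male Medium Protein replicate 3 (563.9, next 208.5). For Khk it was 0.72 in C57BL/6J male Medium Protein replicate 6 (232.4, next 147.8), a library with 6.66% ribosomal-like RNA, and 0.69 in DBA/2J male Medium Protein replicate 1.

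Eno1 stood apart in DBA/2J male Medium Protein replicate 4 (0.671 of the range; 117 CPM, next 95.99), DBA/2J male Low Protein replicate 1 (0.627; 135.3, next 118.2) and, at the low end, DBA/2J female Control replicate 4 (0.747; 78.8, next 91.72). DBA/2J male Low Protein replicate 1 also stood apart for Tkfc (0.631) and Fbp1 (0.657), and Medium Protein replicate 4 for Pcx (0.69; 777.9, next 601.8). The remaining gaps were 0.646 for Gpi1 in C57BL/6J female Control replicate 6, 0.66 for Pgk1 in DBA/2J female Medium Protein replicate 1, 0.633 for Pklr and 0.625 for Sik1 in DBA/2J male Control replicate 5, 0.644 for Fbp1 in DBA/2J female Medium Protein replicate 6 and 0.661 for Pck2 in DBA/2J female Low Protein replicate 1.

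The Low Protein response differed between groups for 12 pairs of member and contrast by edgeR's interaction test. The male minus female differences in C57BL/6J were -0.463 for Gapdh, -0.841 for Khk, -0.346 for Pgam1, -0.548 for Fbp1, -0.548 for Mdh1 and -0.684 for Pcx on the log2 scale. The DBA/2J minus C57BL/6J differences in males were 0.438 for Gapdh, 0.562 for Gckr, 0.814 for Khk, 0.422 for Tpi1, 0.477 for Mdh1 and 0.528 for Pcx.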

How the results depend on the processing

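No paired analysis was possible because the codes in the labels name animals and not replicates. None recurs between the diets of a strain and sex. Many recur between strains or sexes, where the labelled strain or sex differs, so those are different animals. Of 188 counts of called members under other settings 171 stayed within 1.5 times the reported count, as did 424 of 432 with 1 library left out. Fitted on the compared groups only, Low Protein gave 0 in C57BL/6J females and 3 in DBA/2J females. With library totals it gave 2 in C57BL/6J females, 3 in DBA/2J females and 12 for the mean, the male response between strains gave 0, sex in C57BL/6J gave 22, and the median strain share was 22.5%. With no filter Low Protein in C57BL/6J females gave 2, and the response gave 3 between strains in males and 3 by sex in C57BL/6J, while the median of all genes moved by -0.13 for strain in males. DESeq2 gave 11 for Low Protein in DBA/2J females and 1 for the female response between strains. Without the 12 libraries the male response between strains gave 3, without the 4 libraries Medium Protein in C57BL/6J males gave 1, and Control animals only gave 8 for sex in each strain. With 1 library left out, counts were 6 to 9, 2 to 6 and 5 to 10 for Low Protein in C57BL/6J males, C57BL/6J females (2 without Control replicate 4, 6 without Low Protein replicate 1) and DBA/2J females, 7 to 9 for the mean, 0 to 1 for Medium Protein in C57BL/6J males, 3 to 7 for the response by sex in C57BL/6J (3 without female Low Protein replicate 3), 3 to 6 and 0 to 1 for the response between strains in males and females, 20 to 21 and 27 to 29 for strain, and 11 to 13 and 11 to 14 for sex. Signs turned for 19 member values and the cause was not tested: with Control animals only Tpi1 by strain in males (-0.0186), Fbp1 by sex in C57BL/6J (0.09) and Pfkl by sex in DBA/2J (-0.00217); with library totals by sex in C57BL/6J Aldoa (-0.226), Creb3l3 (-0.0861), Foxo1 (-0.22), Gapdh (-0.166), Gpi1 (-0.163), Pcx (-0.157) and Slc2a2 (-0.193), and in DBA/2J Aldoa (-0.168), Eno1 (-0.195), Ldha (-0.0385), Mdh1 (-0.206), Pcx (-0.236), Pfkl (-0.072), Pgam1 (-0.0959), Pgk1 (-0.104) and Tpi1 (-0.0962). Depth limits Pck2 most, with 29 to 240 estimated counts a library.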
